A study of Homo sapiens with 2 samples.

Results

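Lipocalin-2 (LCN2) and 9 genes of iron uptake, storage, export and regulation (TFRC, STEAP3, SLC11A2, FTH1, FTL, SLC40A1, HFE, ACO1 and IREB2) were followed in DLD1, a cell line from a human colorectal adenocarcinoma. The 10 genes were taken by symbol from 52402 gene symbols, and LCN2 was picked with its low value in the knockout already known. RNA was sequenced in 2 libraries, 1 labelled HERV-R knockout and 1 labelled wild type, the control; HERV-R is a retrovirus inherited in the human genome. The same protocol text stands for both, in which vectors for Cas9 and for a guide RNA were brought in by lipofection and hygromycin then selected for colonies. The sources used here do not state what the control was transfected with, or whether a library is 1 clone or a pool. With 1 library per group there was no replicate check of any difference and no test of the knockout. All intervals below cover counting error only.

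The knockout-labelled library held 16406308 counts and the control library 21881122. ERV3-1, the gene that encodes the HERV-R envelope protein, had 125 counts (7.62 CPM, counts per 1000000 counts of the library) in the knockout-labelled library, against 127 counts (5.80 CPM) in the control. The RNA level therefore did not check the label, and every direction below rests on the label alone. Of 17 colon epithelium markers, 14 reached a mean of 1 CPM, among them the adhesion protein EPCAM with 749.8 CPM in the knockout-labelled library and 701 CPM in the control. CDX1 and KRT20 had 0 counts in both libraries. KRT20 stands on several rows, and of 2687 symbols on several rows 546 had any count. Its 0 may therefore come from the counting. By the 2-fold rule given below, 2 of the 14 were higher and 3 lower, where 6.78% and 5.69% of all genes were. The simple-epithelium keratin KRT18 was 2.85-fold lower (1741 against 4967 CPM), with KRT19 2.44-fold and KRT8 2.21-fold lower. CDX2, a transcription factor of the intestine, had 298 against 99.4 CPM, and PHGR1 had 120 against 57.4 CPM.

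As background, cells take up iron bound to transferrin through the transferrin receptor, reduce it in the endosome and pass it to the cytosol through a divalent metal transporter. Surplus iron is stored inside ferritin shells or leaves through ferroportin. The iron regulatory proteins, encoded by ACO1 and IREB2, bind a hairpin in messenger RNAs, the iron-responsive element, when iron is scarce. Bound near the start of a ferritin or ferroportin message the proteins block translation, and bound behind the coding part of the transferrin receptor message they protect it from decay. Lipocalin-2 belongs to a separate arm: it is a secreted protein that captures bacterial siderophores, the small molecules with which microbes gather iron, and gut epithelium makes it in inflammation.

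The iron-responsive element is shown because it is the hairpin that these regulatory proteins bind. Its letters (a bulged C, then 5 bases, the loop CAGTGN, then 5 bases that pair back, G-T pairs allowed) were searched on the sense strand of 1 GENCODE release 29 transcript per protein-coding gene. They occurred in 4 of the 10 genes, and in 239 of 19644 genes in all (1.22%). The bulged C and the loop are in capitals, all lines are written 5′ to 3′ as DNA, and the coordinates are of GRCh38.
FTH1, 5′ UTR, chr11:61967574-61967603, minus strand: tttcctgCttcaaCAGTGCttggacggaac
FTL, 5′ UTR, chr19:48965334-48965363, plus strand: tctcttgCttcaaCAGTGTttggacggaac
SLC40A1, 5′ UTR, chr2:189580661-189580690, minus strand: ccaacttCagctaCAGTGTtagctaagttt
TFRC, 3′ UTR, chr3:196050979-196051008, minus strand: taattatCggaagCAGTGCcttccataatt
TFRC, 3′ UTR, chr3:196050575-196050604, minus strand: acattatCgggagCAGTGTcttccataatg
TFRC, 3′ UTR, chr3:196050510-196050539, minus strand: tctgtatCggagaCAGTGAtctccatatgt
TFRC, 3′ UTR, chr3:196050463-196050492, minus strand: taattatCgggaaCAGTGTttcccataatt
The FTH1 and FTL elements matched at 27 of 30 positions, and TFRC holds 4 elements of this kind. SLC11A2, HFE, STEAP3, ACO1, IREB2 and LCN2 had no match in the transcript searched. The search required all 5 bases to pair and took 1 transcript per gene, so variant hairpins and other transcripts were missed. No match therefore does not show that a gene such as SLC11A2 lacks the element.

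Relative to the control, the knockout-labelled library held far less LCN2 RNA, less ferritin RNA (0.513 of the control level for FTH1 and 0.572 for FTL), and more RNA of the endosomal reductase STEAP3 and of the transferrin receptor. Of the 10 genes, 9 averaged 1 CPM or more over the 2 libraries and were compared with all 12644 genes that did. A gene counted as higher or lower at a 2-fold ratio after 1 CPM was added to both libraries, which holds back ratios of genes near 1 CPM. STEAP3 was the 1 gene of 9 that was higher by this rule, where 6.78% of all genes were, and LCN2 the 1 of 9 that was lower, where 5.69% of all genes were. At 1.5-fold, 2 of 9 were higher (20.3% of all genes) and 3 of 9 lower (13.2% of all genes). At 3-fold, 0 of 9 were higher (0.933% of all genes) and 1 of 9, LCN2, was lower (1.81% of all genes). The median log2 ratio was 0.19 over the 9 genes and 0.12 over all genes. With LCN2 picked by its value, 9 genes are too few to tell whether the list departs from all genes. The account below is therefore of its single members.

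**Figure D1:**
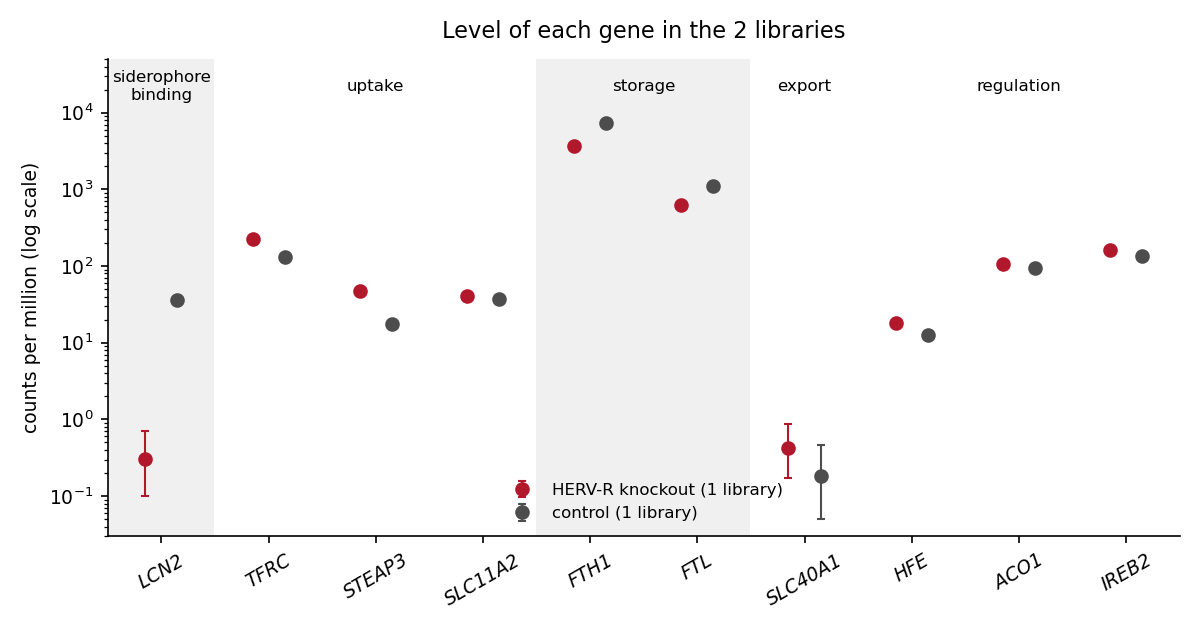
Level of each of the 10 genes in CPM (log axis) in the HERV-R knockout library (red, left) and the control library (grey, right), grouped by role; points are single libraries and bars exact 95% Poisson intervals, often smaller than the point. LCN2 stands at 0.305 CPM in the knockout-labelled library and 36.1 CPM in the control, while SLC40A1 is near the floor in both.

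LCN2 lies on chromosome 9 (GRCh38, 128149071 to 128153455, plus strand, ENSG00000148346.11). It had 5 counts (0.305 CPM; exact Poisson interval 0.0990 to 0.711) in the knockout-labelled library, against 789 counts (36.1 CPM; 33.6 to 38.7) in the control. The level was thus close to the floor of 3 counts (0.183 CPM) in the knockout-labelled library and well above it in the control. The ratio was 118-fold lower, with a 95% counting interval of 50.5-fold to 365-fold lower. With 1 CPM added the log2 ratio was -4.83, the third lowest of the 12644 genes. In bulk RNA, fewer cells that make a transcript and less of it per cell cannot be told apart.

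The sequence before the LCN2 start is shown because this gene had the lowest ratio of the 10 and is a textbook target of NF-kB, the transcription factor of inflammatory signals. The 188 bases run up to the RefSeq start of the gene (GRCh38.p14, chr9:128149265-128149452, plus strand), and they lie inside an intron of a longer GENCODE transcript, LCN2-203. The capitals mark GGGAA, 3 bases and CC, a form of the NF-kB recognition letters, 176 to 167 bases before the start.
LCN2 upstream sequence: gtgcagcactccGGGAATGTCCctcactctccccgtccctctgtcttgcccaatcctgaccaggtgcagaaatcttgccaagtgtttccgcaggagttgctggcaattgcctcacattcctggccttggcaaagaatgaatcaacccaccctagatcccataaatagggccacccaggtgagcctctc
On either strand, this form occurred in the 250 bases before 6.02% of 35116 RefSeq starts, and the exact letters of the LCN2 site before 24 of them (0.0683%). The site was found in LCN2 with this form and its exact letters were read there, so both matches of LCN2 were fixed in advance. Any fixed run of 10 letters is expected before few starts, so the share for the exact letters does not mark the site out. The looser form of GGG, 5 bases and CC occurred before 54.4% of starts. A match describes the letters and does not show that a factor is bound there.

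Genes whose log2 ratios came near that of LCN2 included INHBB, CDH12, EEF1A2 and SEMA6B, a likeness over 2 libraries and so of 1 number per gene. INHBB, an activin subunit, had 1.04 CPM in the knockout-labelled library and 43.8 CPM in the control, and its log2 ratio of -4.46 lay 0.37 from that of LCN2. CDH12, EEF1A2 and SEMA6B lay 1.01 to 1.03 away. EEF1A2, a translation elongation factor, stood below LCN2 at -5.85, and the cadherin CDH12 (-3.82) and the semaphorin SEMA6B (-3.80) stood above it. LCN2 therefore had no neighbour closer than 0.37 on the log2 scale.

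Of the proteins that handle lipocalin-2 or its cargo, only BDH2 was measured at a mean of 1 CPM among 4 listed genes. BDH2, a dehydrogenase reported to make a mammalian siderophore, had 195 counts (11.9 CPM) in the knockout-labelled library and 387 (17.7 CPM) in the control, a ratio of 0.672 (0.563 to 0.800). The receptor gene LRP2 had 1 count in each library. The receptor gene SLC22A17 and MMP9, whose protease binds lipocalin-2, had 0 counts in both, which allows up to 0.183 CPM in the knockout-labelled library and 0.137 CPM in the control. Of 18 other lipocalin genes, 11 had 0 counts in both libraries (APOM among them, which stands on several rows) and 2 were measured. LCN15, another lipocalin, had 57 counts (3.47 CPM) against 26 (1.19 CPM), 2.92-fold higher (1.81 to 4.84), and its log2 ratio of 1.03 fell short of the rule with TMM (0.95) and with a pseudocount of 5 (0.45). LCN12 had 13 counts against 32 (0.792 and 1.46 CPM), and its log2 ratio of -0.46 did not reach the rule.

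Neutrophils also make LCN2, so their markers were read beside it. Of 18 neutrophil and myeloid markers, 8 had 0 counts in both libraries, and the list summed to 2.38 CPM in the knockout-labelled library and 6.44 CPM in the control. S100A9, a calcium-binding protein that epithelia also make, had 2 counts against 45, 16.9-fold lower (4.41 to 144), and its log2 ratio of -1.45 did not pass with a pseudocount of 5 (-0.46). CD68, a lysosomal protein abundant in macrophages, had 15 counts (0.914 CPM) against 54 (2.47 CPM). Of the 8 markers at 0, 4 stand on a single row each, namely the granule peroxidase MPO, the collagenase MMP8, S100A12 and FCGR3B. The other 4 (ELANE, AZU1, PRTN3 and PTPRC) stand on several rows each, and of 2687 symbols on several rows 546 had any count, so their 0 may come from the counting. Lactoferrin (LTF), the other iron-binding granule protein, had 0 counts against 4. The part of such cells in the LCN2 difference was not tested.

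The uptake genes ran from no difference beyond counting error to a 2.70-fold higher level. TFRC, the receptor that brings in iron-loaded transferrin, lies on chromosome 3 (196027183 to 196082189, minus strand). TFRC had 3661 counts (223 CPM) in the knockout-labelled library and 2893 (132 CPM) in the control, 1.69-fold higher (1.61 to 1.77). It was higher than the control but under the 2-fold rule, with a log2 ratio of 0.75, and 86.6% of all measured genes had a lower one.

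STEAP3, the reductase that turns ferric into ferrous iron in the endosome, lies on chromosome 2 (119223831 to 119265652, plus strand). STEAP3 had 784 counts (47.8 CPM) in the knockout-labelled library and 387 (17.7 CPM) in the control, 2.70-fold higher (2.39 to 3.06). Its log2 ratio of 1.38 exceeded that of 98.1% of measured genes. The antisense gene STEAP3-AS1 overlaps it and had 69 counts (4.21 CPM) against 40 (1.83 CPM). The sources used here do not state whether counting used strand, so reads of the 2 genes cannot be told apart where they overlap.

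SLC11A2, the divalent metal transporter DMT1, had 662 counts (40.4 CPM) in the knockout-labelled library and 824 (37.7 CPM) in the control. The ratio of 1.07 had an interval of 0.966 to 1.19, which includes 1. Its log2 ratio was 0.10 with library totals and -0.02 to -0.06 under 3 other scalings (TMM, a trimmed mean of gene ratios; the upper quartile; and the median of gene ratios), so no direction is given. A difference at this transporter was not detectable at this depth.

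Both ferritin subunits were lower in the knockout-labelled library. FTH1, the heavy subunit, which oxidises iron on entry into the shell, lies on chromosome 11 (61959718 to 61967660, minus strand). FTH1 had 61186 counts (3729 CPM) in the knockout-labelled library and 159089 (7271 CPM) in the control, 1.95-fold lower (1.93 to 1.97). Ranked by counts it stood in place 7 of all symbols in the knockout-labelled library and in place 5 in the control. FTL, the light subunit, which supports the iron core, lies on chromosome 19 (48965301 to 48966878, plus strand). FTL had 10274 counts (626 CPM) against 23963 (1095 CPM), 1.75-fold lower (1.71 to 1.79).

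With 1 CPM added, the log2 ratios were -0.96 for FTH1 and -0.81 for FTL, so neither reached the 2-fold rule with library totals. TMM put FTH1 at -1.08, past the rule, and FTL at -0.93, just short of it. Lower log2 ratios than that of FTH1 were held by 6.13% of all measured genes, and than that of FTL by 8.24%. Among 236 genes averaging 500 CPM or more, 15 (6.36%) stood at or under FTH1 and 21 (8.90%) at or under FTL, and the median log2 ratio of those 236 was -0.23. Both subunits together took 0.436% of all counts in the knockout-labelled library and 0.837% in the control.

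The subunits did not move in exact proportion. FTH1 had 5.96 counts per FTL count in the knockout-labelled library and 6.64 in the control, a ratio of 0.897 (Wald interval from the counts, 0.875 to 0.920). Such ratios within a library do not depend on how the libraries are scaled. TFRC had 0.0598 counts per FTH1 count in the knockout-labelled library and 0.0182 in the control, 3.29-fold higher (3.13 to 3.46). This ratio alone does not give the direction of either gene. By the CPM given above, the uptake receptor TFRC was higher and the storage subunit FTH1 lower than in the control. Set against FTL, the receptor was 2.95-fold higher (2.80 to 3.12).

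Ferritin genes have many processed pseudogenes whose reads can be split from the parent. The 26 FTH1P symbols summed to 94 counts in the knockout-labelled library and 152 in the control, and the 19 FTLP symbols to 35 and 29. With these added, FTH1 was 1.95-fold and FTL 1.74-fold lower, both within the intervals of the parent genes alone. BEST1, which overlaps FTH1 on the opposite strand, had 19 counts against 52.

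**Figure D2:**
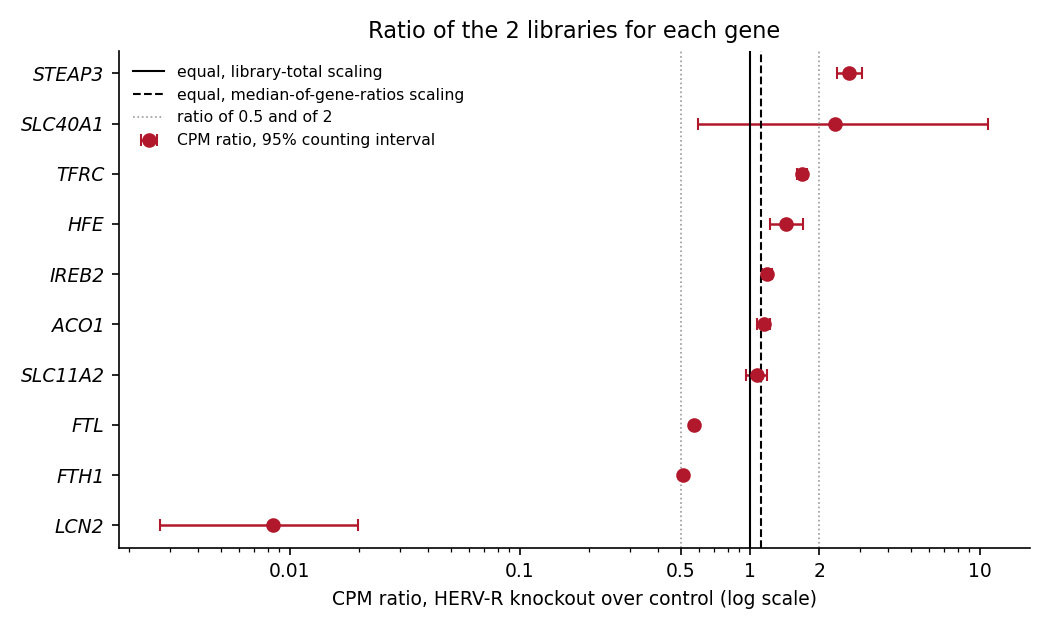
CPM ratio of the HERV-R knockout library over the control library (log axis) for each of the 10 genes, with exact 95% counting intervals; the solid line marks equal levels with library totals, the dashed line equal levels when scaled by the median of gene ratios, and the dotted lines ratios of 0.5 and 2. LCN2, FTH1 and FTL lie left of both lines, IREB2 (by a small margin), HFE, TFRC and STEAP3 right of both, and the SLC40A1 interval spans them.

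SLC40A1, which encodes ferroportin, the iron exporter of vertebrate cells, had 7 counts (0.427 CPM) in the knockout-labelled library and 4 (0.183 CPM) in the control. The ratio of 2.33 had an interval of 0.593 to 10.9, and the gene did not reach a mean of 1 CPM. No difference was detectable at this depth. The ferroxidases that work with ferroportin were also low, with HEPH at 5.61 CPM against 3.24 CPM and CP at 2.01 CPM against 3.43 CPM, and neither reached the rule.

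None of the regulatory genes reached the 2-fold rule. HFE, the MHC class I-like protein that binds the transferrin receptor and is mutated in hemochromatosis, had 300 counts (18.3 CPM) in the knockout-labelled library and 278 (12.7 CPM) in the control, a ratio of 1.44 (1.22 to 1.70). ACO1, iron regulatory protein 1 and cytosolic aconitase, had 1768 counts (108 CPM) against 2059 (94.1 CPM), a ratio of 1.15 (1.07 to 1.22). IREB2, iron regulatory protein 2, had 2628 counts (160.2 CPM) against 2960 (135 CPM), a ratio of 1.18 (1.12 to 1.25). The log2 ratios of ACO1 (0.19) and IREB2 (0.24) lay near the 0.12 of all genes, and the other 3 scalings put them at 0.04 to 0.07 and 0.08 to 0.12. The ACO1 to IREB2 ratio within a library was 0.673 in the knockout-labelled library and 0.696 in the control, a difference within counting error (0.967; 0.891 to 1.05).

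**Figure D3:**
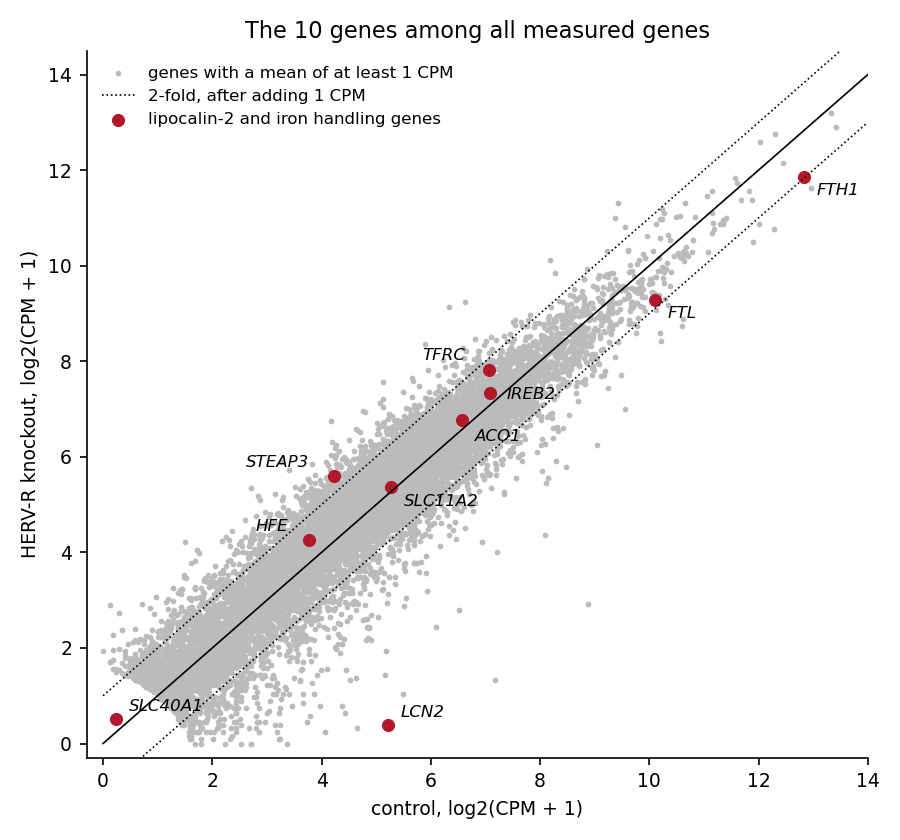
Level of every gene averaging 1 CPM or more (grey) in the HERV-R knockout library (vertical) against the control library (horizontal), both as log2(CPM + 1), with the 10 genes in red; the solid line marks equal levels and the dotted lines 2-fold. LCN2 lies far below the lower dotted line, FTH1 just inside it and STEAP3 above the upper one.

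In order of the CPM ratio the genes ran LCN2, FTH1, FTL, SLC11A2, ACO1, IREB2, HFE, TFRC, SLC40A1 and STEAP3. The intervals of LCN2, FTH1 and FTL overlapped neither each other nor that of any other gene. SLC11A2, ACO1 and IREB2 overlapped each other, and HFE overlapped ACO1, IREB2 and TFRC. STEAP3 did not overlap TFRC. SLC40A1 overlapped every gene from SLC11A2 to STEAP3.

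To compare levels between genes, CPM were divided by the length of 1 principal GENCODE transcript per gene. Per kilobase, FTH1 (3035 and 5916 CPM per kb in the knockout-labelled and the control library) and FTL (713 and 1247) led in both. LCN2 stood in place 9 in the knockout-labelled library at 0.359 CPM per kb and in place 3 in the control at 42.5. TFRC stood in place 3 in the knockout-labelled library at 43.7 CPM per kb and in place 4 in the control at 25.9. IREB2 stood at 25.2 and 21.3 CPM per kb and ACO1 at 14.4 and 12.6. STEAP3 stood in place 6 in the knockout-labelled library with 12.2 CPM per kb and in place 8 in the control with 4.52. SLC40A1 was last in both.

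A further 100 symbols of iron biology were listed (a few of them older and newer names of 1 gene), of which 94 stand in the files and 76 were measured. Of these 76, 4 were higher and 3 lower, with a median log2 ratio of 0.10, against 6.78% and 5.69% of all genes and their median of 0.12. The wider list thus stood near the background. With TMM, 2 of 76 were higher and 6 lower, where 4.75% and 6.95% of all genes were. With a pseudocount of 5, FDX1L and CYBRD1 alone passed the rule, so the calls of STEAP4, STEAP1, BMP2, NDOR1 and IBA57 given below depend on it.

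Among 14 measured genes of uptake, storage and export, 1 was higher (STEAP1) and 2 lower (CYBRD1 and STEAP4), where 6.78% and 5.69% of all genes were. CYBRD1, the ferric reductase of the duodenal brush border, had 5 counts (0.305 CPM) in the knockout-labelled library and 184 (8.41 CPM) in the control, 27.6-fold lower (11.6 to 86.0). The genes of the STEAP family differed among themselves. STEAP4 had 16 counts (0.975 CPM) against 130 (5.94 CPM), 6.09-fold lower (3.61 to 11.0), whereas STEAP1 had 268 (16.3 CPM) against 146 (6.67 CPM), 2.45-fold higher (1.99 to 3.02), and STEAP3 was higher as above. STEAP2 lay between, with 39.1 and 30.1 CPM. Transferrin receptor 2 (TFR2) had 13.8 CPM against 8.96 CPM, and the ferritin cargo receptor NCOA4, which delivers ferritin to lysosomes, had 189 against 204 CPM.

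Of 12 measured genes of iron regulation and the hepcidin pathway, 0 were higher and 1 lower, where 6.78% and 5.69% of all genes were. The lower gene was BMP2, a ligand that induces hepcidin. BMP2 had 63 counts (3.84 CPM) in the knockout-labelled library and 261 (11.9 CPM) in the control, 3.11-fold lower (2.35 to 4.16). FBXL5, the iron-sensing ubiquitin ligase subunit that marks the iron regulatory proteins for degradation, had 33.8 CPM against 65.7 CPM; it was chosen after its values were seen, and its log2 ratio of -0.94 passed the rule with TMM (-1.06). Hepcidin itself (HAMP) had 0 counts in the knockout-labelled library and 0 in the control, with the limits given for SLC22A17. Of 18 measured heme genes none was higher or lower, where 6.78% and 5.69% of all genes were, so few calls would be expected of 18. Their log2 ratios ran from -0.79 (ALAS1, the first enzyme of heme synthesis) to 0.69 (UROD). CPOX, the most abundant, had 207.5 CPM in the knockout-labelled library and 203 CPM in the control, and PGRMC1, a heme-binding membrane protein, had 134 against 113 CPM.

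Of 32 measured genes of mitochondrial iron and iron-sulfur cluster assembly, 3 were higher and none lower, where 6.78% and 5.69% of all genes were, and the median log2 ratio was 0.24, against 0.12 for all genes. The ferredoxin FDX1L (now FDX2), an electron donor for cluster assembly, had 27.5 CPM in the knockout-labelled library and 10.1 CPM in the control (2.71-fold; 2.30 to 3.20). The cytosolic reductase NDOR1 was 2.20-fold higher (43.3 against 19.7 CPM) and the late-acting factor IBA57 2.24-fold (18.2 against 8.13 CPM), and both fell short of the rule with TMM. SLC25A37, mitoferrin-1, the iron importer of the mitochondrial inner membrane, had 89.1 CPM against 168 CPM (log2 ratio -0.91) and was named after its values were seen. Of 5 further measured mRNAs listed for a reported iron-responsive element, none passed the rule: CDC42BPA had 289 against 279 CPM and PFN2 101 against 156 CPM.

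**Figure D4:**
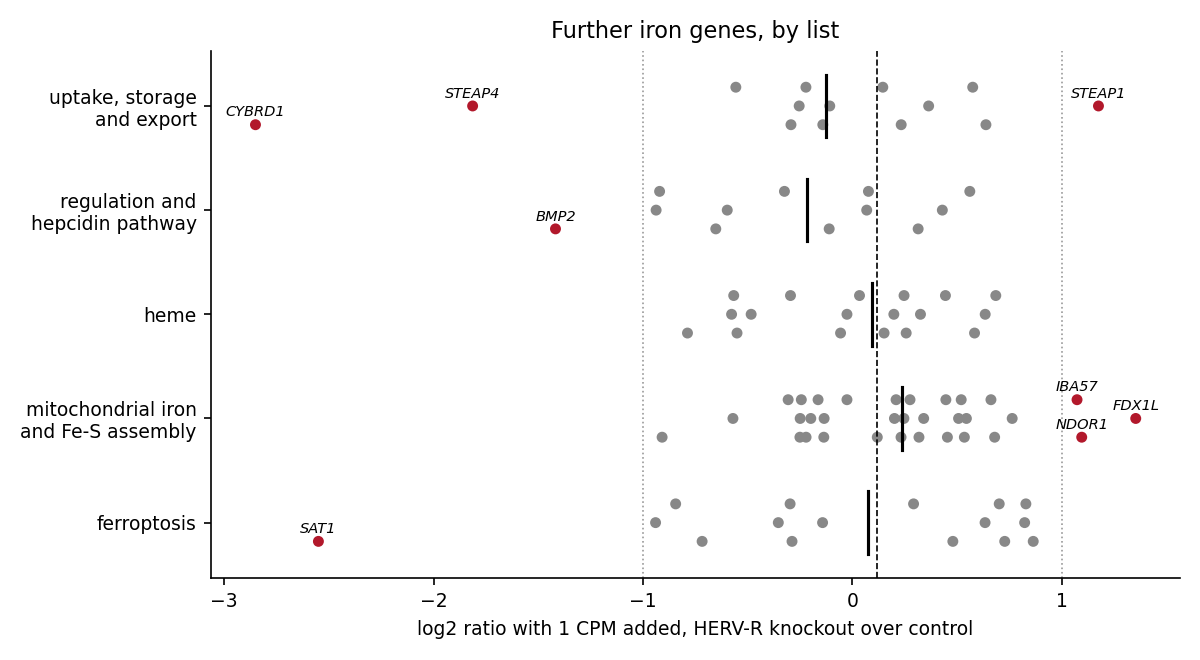
Log2 ratio of the HERV-R knockout library over the control library, with 1 CPM added, for each measured gene of 4 further iron lists and a ferroptosis list (1 point per gene; height within a row has no meaning); short black bars are list medians, the dashed line the median of all genes (0.12) and the dotted lines the 2-fold rule. Genes past the rule are red and named, with CYBRD1 the lowest at -2.85 and FDX1L the highest at 1.35.

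Markers of other cells were low in both libraries. Of 16 erythroid markers, 13 had 0 counts in both, including the beta-globin gene HBB, and the list summed to 5.36 CPM in the knockout-labelled library and 8.77 CPM in the control, nearly all of it EPOR (5.18 and 8.73 CPM). Of 12 fibroblast and endothelial markers, 6 had 0 counts in both, and the sum was 3.35 and 6.40 CPM, most of it PDGFRB (2.32 and 4.66 CPM). Ribosomal RNA took 3.55% of counts in the knockout-labelled library and 4.21% in the control. The part of these differences in the values above was not tested.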

How the data were processed

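The authors deposited 1 table of raw counts per library, whole numbers with no normalization, for 58173 rows named by gene symbol. The aligner was TopHat and the genome GRCh38, per the submitters' processing notes. The sources used here do not state the counting program, annotation, use of strand or filters. A directional kit made the libraries from Trizol-extracted total RNA, per the labels' protocols.

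Rows of 1 symbol were summed (each of the 10 genes stands on 1 row) and scaled to CPM by library total. Log2 ratios had 1 CPM added. Genes averaging 1 CPM or more were compared, and counted as higher from a log2 ratio of 1 upward and as lower from -1 downward. Single ratios had no pseudocount and an exact 95% Clopper-Pearson interval conditional on the summed count. Duplicate reads are not independent molecules, so intervals and the floor of 3 counts cover counting error only. No test was possible with 1 library per group. The procedure was tested on simulated data. In the further lists, up to 4 genes past the rule were named, or the 2 most abundant where none passed; other genes were chosen after their values were seen. The genes nearest to LCN2 in log2 ratio were also named, and 1 result of this rule is not reported here. The genes and lists were chosen with earlier results of these data known. Tools were Python 3.11.15, scipy 1.17.1 and edgeR 4.0.16, the last for scaling factors only. Sequences came from RefSeq (GRCh38.p14) and GENCODE release 29.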

Additional observations from a re-analysis of the deposited data

How the results depend on the processing

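With 1 library per group no replicate could be left out. No paired analysis was possible because each group holds 1 library. TMM, the upper quartile and the median of gene ratios lowered every log2 ratio by 0.12 to 0.16, about the median of all genes, before 1 CPM was added. Under each of these 3 scalings, FTH1 joined LCN2 so that 2 of the 9 measured genes were lower, and the wider iron list had 2 higher and 6 lower (BMP2, CYBRD1, STEAP4, ERFE, FBXL5 and SLC25A37). Of all genes, 4.30% to 4.75% were then higher and 6.95% to 7.47% lower (544 higher and 945 lower with the median of gene ratios), so 6 of 76 in the wider list stood near the background. A 1.5-fold rule gave 2 of the 9 genes higher and 3 lower, 10 and 9 of the wider list, and 2567 and 1674 of all genes. A 3-fold rule gave 0 of the 9 measured genes higher and 1 lower, 0 and 2 of the wider list, and 118 and 229 of all genes. A pseudocount of 5 gave 1 and 1 of the wider list (FDX1L and CYBRD1) and 426 and 371 of all genes, and put LCN2 at -2.95. A pseudocount of 0.1 put LCN2 at -6.48, since the value rests on 5 counts. A minimum mean of 5 CPM left 1 of 69 genes of the wider list lower (BMP2), where 4.67% of all genes were. CYBRD1 and STEAP4 fell under that minimum, while their ratios did not change. LCN2 and STEAP3 stayed past 2-fold in each alternative run. LCN2 also passed the 3-fold rule, which STEAP3, with its log2 ratio of 1.38, did not reach. SLC11A2 was the 1 of the 9 measured genes whose sign turned, under the 3 scalings. Leaving out ribosomal RNA or symbols on several rows changed no call among the 10 genes. Depth limits SLC40A1, LCN2, CYBRD1 and the lipocalin receptors, which rest on few counts.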

Other observations

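Ferroptosis, a form of cell death that needs iron and lipid peroxidation, was covered by a list of 19 genes, of which 16 were measured. None was higher and 1 was lower, where 6.78% and 5.69% of all genes were, and the median log2 ratio was 0.08, against 0.12 for all genes. The lower gene was SAT1, the enzyme that acetylates spermidine and spermine, with 2088 counts (127 CPM) in the knockout-labelled library and 16411 (750.01 CPM) in the control, 5.89-fold lower (5.63 to 6.17). The glutathione peroxidase GPX4, which reduces lipid peroxides, had 306 against 374 CPM and the cystine importer SLC7A11 94.5 against 56.7 CPM. The thioredoxin reductase TXNRD1 had 436 against 837 CPM, a log2 ratio of -0.94, close to that of FTH1. GPX4, SLC7A11 and TXNRD1 were chosen after their values were seen.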
